A study of Mus musculus with 8 samples.

Results

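Claudins are small membrane proteins that cross the cell membrane several times and join neighbouring cells at tight junctions. The 10 claudin genes described here (Cldn1, Cldn2, Cldn3, Cldn4, Cldn6, Cldn7, Cldn8, Cldn10, Cldn11 and Cldn12) were selected on their gene name in the scanner files. They are read by 13 probes, out of 27391 named genes and 39429 probes present on both array designs of the series. The list itself was drawn up with earlier results of these arrays known, so the levels below are a description and the tests are read against all genes tested. Another 22 genes of the claudin family are named on both designs and serve as a comparison.

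Kidney rudiments of NMRI mouse embryos at stage E11.5, males and females pooled, were dissociated and their GFP-positive cells sorted. Control cells came from Tbx18(GFP/+) embryos (3 arrays), Tbx18 null cells from Tbx18(GFP/GFP) embryos (3 arrays) and Tbx18VP16 cells from Tbx18(cre/+);Hprt(CAG:Tbx18VP16-GFP) embryos (2 arrays). Tbx18 is a transcription factor of the T-box family, made in the mesenchyme around the early ureter. In control and null cells GFP is read from the Tbx18 allele itself. In Tbx18VP16 cells the Cre allele of Tbx18 switches on, from the Hprt locus, GFP and Tbx18 fused to the activation domain of VP16, so that comparison also sets a Cre allele against a GFP allele. All groups thus carry at least 1 modified Tbx18 allele, and no group is wild type. Each array carried a pool of about 100000 cells from several rounds of sorting. The amount of total RNA amplified was 20 ng, but 10 ng for replicate 3 of control and null. Control and null arrays were of 1 design, and the Tbx18VP16 arrays of another design on a slide of their own, so genotype, array design and slide cannot be told apart for that group.

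Tight junctions seal the space between cells of an epithelium and set which ions and molecules pass between them. The claudins present decide how tight and how ion-selective the seal is: some, such as Cldn1, Cldn3 and Cldn4, act mainly as barriers, while Cldn2 forms a pore for cations. In the early kidney they are known best from the ureteric bud and, later, from nephron segments. Mesenchyme, the tissue that Tbx18 marks around the ureter, forms no such seal, although single claudins such as Cldn11 and Cldn12 are also made by cells outside epithelia. Within pooled cells, fewer cells of a type and less RNA per cell cannot be told apart.

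Promoters of 4 of these genes are shown. Cldn1 was taken because Tbx18 was the gene nearest to it in level across the arrays. Cldn4, Cldn6 and Cldn7 were picked because they hold the E-box letters before a start. Cldn3, which varied with them, has no such letters before its start, and neither has the first listed start of Cldn7. Each line gives the 250 bases before a transcription start, 5′ to 3′, from RefSeq promoter windows of build GRCm38.p6. Capitals mark the E-box CAGGTG, read on either strand, which repressors of the Snail and Zeb families are known to bind. The windows lie at chr16:26371840-26372089 on the minus strand (Cldn1), chr5:134946935-134947184 on the minus strand (Cldn4), chr17:23679115-23679364 on the plus strand (Cldn6) and chr11:69965171-69965420 on the plus strand (Cldn7, the second of its 2 listed starts).
Cldn1: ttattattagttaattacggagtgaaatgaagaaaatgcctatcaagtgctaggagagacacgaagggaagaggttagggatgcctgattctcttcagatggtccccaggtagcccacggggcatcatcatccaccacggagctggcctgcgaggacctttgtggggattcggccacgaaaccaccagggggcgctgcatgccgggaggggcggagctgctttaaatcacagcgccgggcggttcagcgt
Cldn4: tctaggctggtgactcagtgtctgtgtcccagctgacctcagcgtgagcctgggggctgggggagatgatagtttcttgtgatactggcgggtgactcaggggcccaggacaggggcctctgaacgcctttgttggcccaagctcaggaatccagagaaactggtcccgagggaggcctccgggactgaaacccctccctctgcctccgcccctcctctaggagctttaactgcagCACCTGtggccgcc
Cldn6: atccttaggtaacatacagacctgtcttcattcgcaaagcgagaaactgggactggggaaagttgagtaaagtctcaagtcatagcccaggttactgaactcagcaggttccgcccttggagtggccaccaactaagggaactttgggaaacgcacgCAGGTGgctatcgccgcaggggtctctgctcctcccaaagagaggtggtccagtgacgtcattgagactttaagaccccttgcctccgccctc
Cldn7: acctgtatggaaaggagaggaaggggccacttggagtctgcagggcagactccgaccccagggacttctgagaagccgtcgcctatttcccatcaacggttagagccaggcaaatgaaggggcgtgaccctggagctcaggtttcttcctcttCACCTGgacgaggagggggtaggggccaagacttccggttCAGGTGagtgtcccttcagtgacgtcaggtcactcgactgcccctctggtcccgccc

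RefSeq windows were found for 9 of the 10 genes, 13 windows in all. Each window runs from 250 bases before to 50 bases after the start. A total of 3 motifs were searched on both strands. The E-box CAGGTG lay within the 250 bases before the start in 3 of the 13 windows, against 17.22% of all 32851 windows. Its first base was 14 bases before the start in Cldn4, 93 bases before it in Cldn6, and 97 and 57 bases before it at the second start of Cldn7. Counting the 50 bases from the start on, 4 windows held it, against 20.21% of all windows. The addition was Cldn3, with the motif from base 32, and second copies stood at base 12 in Cldn4 and base 41 in Cldn6. The T-box letters GGTGTGA stood in none of the 13 windows and in 3.979% of all windows. The grainyhead letters AACCNGTT, named for a family of epithelial activators, stood in none either and in 2.088% of all windows. CAGGTG and GGTGTGA share the letters GGTG, a match of AACCNGTT can share an end letter with one of GGTGTGA, and a match is a description of sequence only.

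Between 60.1% and 66.0% of probes were well above background on each array and no spot was saturated. Levels are log2 of the processed signal relative to the 75th percentile of the array, so a level of 0 is the signal that 75% of probes stay under. A level belongs to its probe, and levels of different genes are not set against each other. Tbx18 itself, the check of the labels, was at -0.02, 1.20 and 1.04 in controls 1, 2 and 3, at -2.40, -1.34 and -2.35 in nulls 1, 2 and 3, and at 1.34 and 1.06 in the Tbx18VP16 pools. All 16 genes of a list of ureteric and stromal mesenchyme were measured well enough to be tested. Of 28 genes of a list of ureteric epithelium, 26 were tested in the null fit and 28 in the fit of all arrays. In that list the epithelial marker Cdh1 was well above background on 4 of the 8 arrays, and Epcam, Krt8 and Krt18 on all 8. Control and null pools of the same number deviated together across genes and were taken as pairs. Some pools also stood apart in markers of other cells. The summed level of 16 blood genes was 8.58 in null 3 against 2.65 to 4.43 in the other 7 arrays. That of 12 endothelial genes was 4.27 against 1.06 to 2.33. Such sums are led by their brightest genes, for blood in null 3 the globins Hbb-y (7.67), Hba-x (6.53) and Hbb-bh1 (6.35). Gene by gene, 12 of 13 tested blood genes and 12 of 12 endothelial genes were higher in the null of pair 3. The changes of Cldn3, Cldn4, Cldn6, Cldn7 and Cldn8 and the counts over the list are therefore also given without null 3. The Tbx18VP16 pools stood apart in Pf4, a platelet gene of the blood list, whose part in the claudin values was not tested. Pf4 was at 1.83 and 2.78 there against -7.12 to -4.74 in controls and -6.26 to 0.42 in nulls.

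Of the 10 genes, 9 had a probe well above background on enough arrays to be tested, and 4 of these (Cldn7, Cldn10, Cldn11 and Cldn12) were so on all 8 arrays. Cldn2, the cation pore claudin, was not well above background on any array with either of its probes. They lie on the X chromosome at 136345244-136345303 and 136343889-136343948 in mm9. Their levels ran from -8.47 to -7.09 over the 8 arrays. A second probe for Cldn7, at 69778772-69778831 on chromosome 11 and designed on another transcript, was not well above background on any array either.

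**Figure D1:**
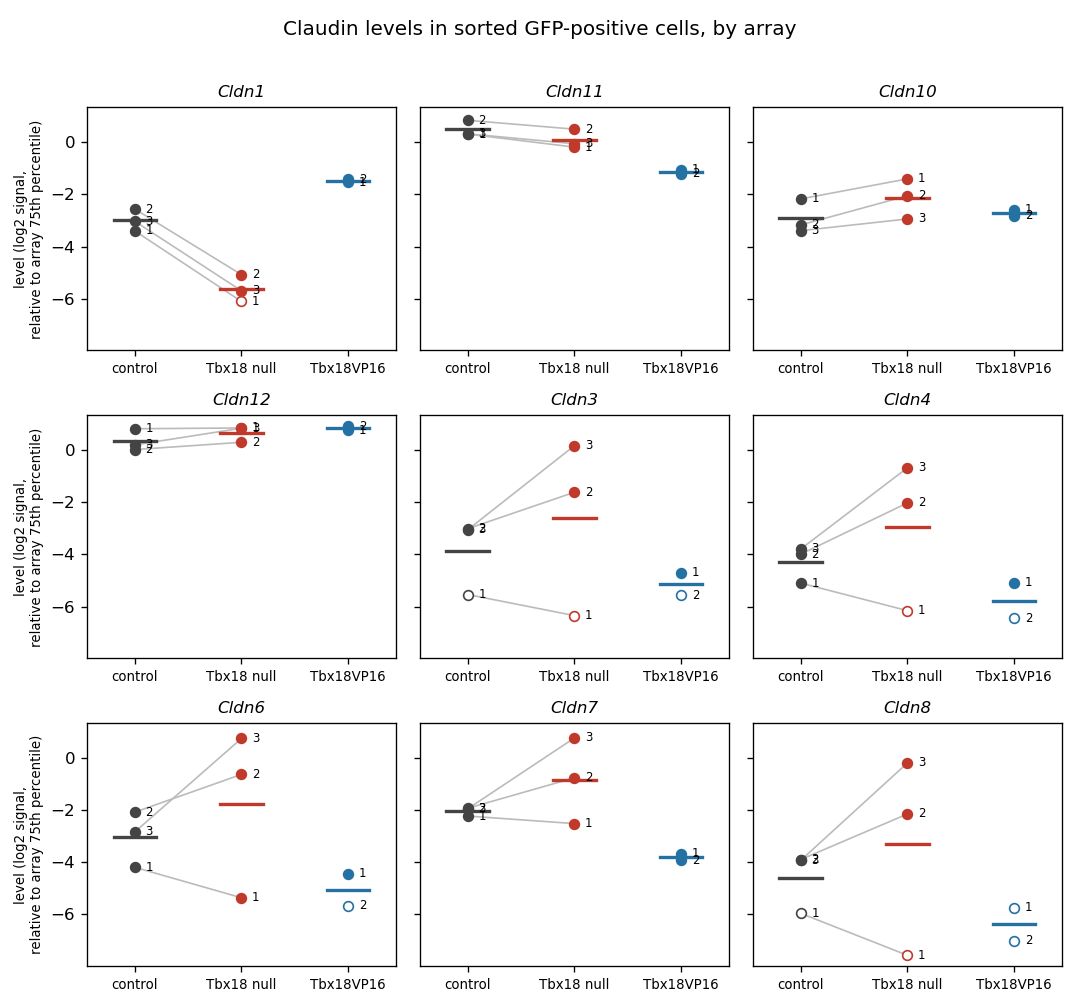
Level of each tested claudin (log2 signal relative to the array's 75th percentile) in the 3 control, 3 Tbx18 null and 2 Tbx18VP16 arrays. Points are arrays with their replicate number, open where the probe was not well above background, bars are group means, and grey lines join control and null pools of the same number. Cldn1 is lower in the null on every line and highest in Tbx18VP16, while the lines of Cldn3, Cldn4, Cldn6, Cldn7 and Cldn8 slope down for pair 1 and up for pairs 2 and 3.

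Cldn1, a main barrier claudin of epithelia such as the epidermis, was lower in Tbx18 null pools and higher in Tbx18VP16 pools than in controls. Its probe is on chromosome 16, minus strand, at 26357372-26357431 in mm9 and starts at base 2541 of the transcript it was designed on. The level was -3.40, -2.56 and -3.03 in controls 1, 2 and 3, -6.11, -5.08 and -5.70 in nulls 1, 2 and 3, and -1.53 and -1.42 in Tbx18VP16 pools 1 and 2. The 3 groups did not overlap, with nulls lowest and Tbx18VP16 highest. Null 1 was not well above background. Group means were -2.99 ± 0.42 (SD, n = 3) in control, -5.63 ± 0.52 (SD, n = 3) in null and -1.47 ± 0.08 (SD, n = 2) in Tbx18VP16.

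Within pairs 1, 2 and 3 the null minus control values of Cldn1 were -2.71, -2.52 and -2.68 in log2, a narrow span. The change in the null was -2.64 ± 0.35 (SE), 6.21-fold lower, with an adjusted p of 0.0872 in limma. With the replicate block, which compares within pairs, the SE was 0.12 and the adjusted p 0.0162. That call rested on 3 pairs: without pair 1, 2 or 3 the blocked adjusted p was 0.0691, 0.173 and 0.00187. Under another background correction (normexp) the change was -1.23, with an adjusted p of 0.213 without the block. Of 16 ureteric and stromal mesenchyme genes, Tbx18 included, 12 were lower and 4 higher in the null. With the replicate block 3 passed as lower: Lum, Dcn and Tbx18 itself, the gene altered in these embryos. Of 19 nephron progenitor genes 17 were higher and 2 lower, and 4 passed as higher with the block. Over all genes tested, 1.08% passed with the block in either direction. The part of a changed mix of cells in the Cldn1 values was not tested.

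In Tbx18VP16 pools the change of Cldn1 against control was 1.52 ± 0.36 (SE), 2.87-fold higher, with a limma adjusted p of 0.052, just outside the threshold of 0.05. Scaling by the array median gave 1.73 and an adjusted p of 0.0364, and the normexp correction 1.22 and 0.0349. A replicate block gave 1.50 and 0.016, although the labels do not say that Tbx18VP16 numbers pair with the other groups. Where 1 Tbx18VP16 pool is left out, here and for other genes, the pool that remains is assumed to vary like the other groups. Against the null, Cldn1 rose by 4.16 ± 0.36 (SE) in log2, 17.9-fold, with a limma adjusted p of 0.00274. Without Tbx18VP16 replicate 2 that adjusted p was 0.068. The summed level of 14 genes of mesothelium, the epithelium of the body cavity, was 5.29 and 5.57 in Tbx18VP16 pools. It was 4.52 to 4.80 in controls and 4.62 to 5.0 in nulls. The sum is led by its brightest genes and is no measure of mesothelial content. In Tbx18VP16 pools these were Wt1 (4.30 and 4.66), also a nephron progenitor gene of the lists, and Cpe (3.58 and 3.81). Against control 12 of the 14 were higher and 2 lower, Gata6 among the lower (-1.56 ± 0.38, SE). The part of mesothelium in the Cldn1 values was not tested. With the normexp correction the change of Cldn1 against the null was 2.46, with an adjusted p of 0.00301.

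The gene whose level was most like that of Cldn1 across the 8 arrays, among genes tested and passing over clone-like names, was Tbx18 itself. With each gene centred on its own mean, the root mean square difference was 0.49 in log2, against a range of 4.69 for Cldn1. Tecta, a protein of inner ear matrix, followed at 0.71 and Col8a2, a short-chain collagen, at 0.81. The likeness runs over arrays of 3 genotypes, so the order of the groups is part of it. The Tbx18 probe was itself lower in the null, and the labels do not say whether the transgene carries its region.

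**Figure D2:**
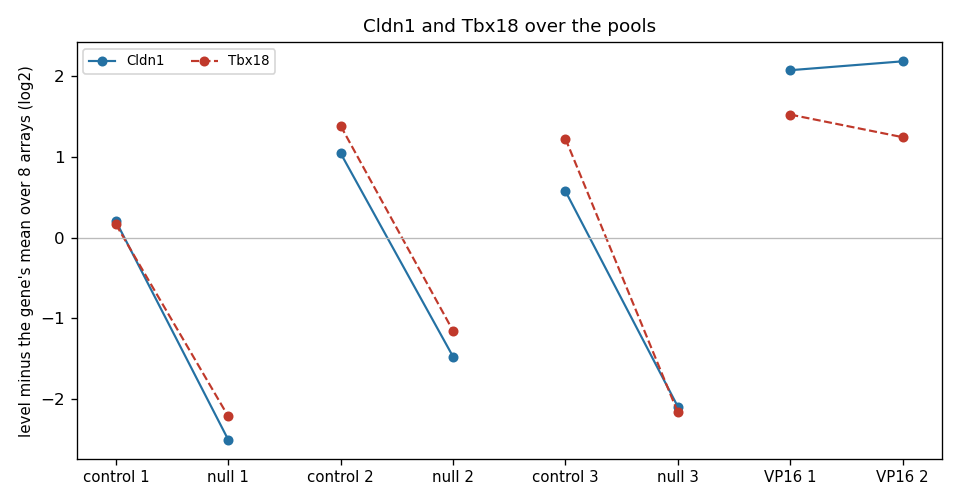
Levels of Cldn1 (solid) and Tbx18 (dashed) over the 8 arrays, each minus its own mean in log2. Lines join control and null of a pair, and the 2 Tbx18VP16 pools. Both genes are lower in null than in control in every pair, and Cldn1 is further above its mean in Tbx18VP16 than in control pools.

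Cldn11, the claudin of myelin and Sertoli cell junctions, was lower in Tbx18VP16 pools than in every other pool. Its probe lies on the plus strand of chromosome 3 at 31062922-31062981 in mm9. The level was 0.32, 0.85 and 0.33 in controls 1, 2 and 3, -0.18, 0.51 and -0.05 in nulls 1, 2 and 3, and -1.05 and -1.21 in Tbx18VP16 pools. Control and null overlapped, while both Tbx18VP16 pools lay below them. The group means were 0.50 ± 0.30 (SD, n = 3), 0.09 ± 0.37 (SD, n = 3) and -1.13 ± 0.11 (SD, n = 2).

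Cldn11 fell by 1.63 ± 0.29 (SE) in log2 in Tbx18VP16 against control, 3.09-fold, with a limma adjusted p of 0.0216. That call was lost without control 2 (adjusted p = 0.0703), without Tbx18VP16 1 (0.161) and without Tbx18VP16 2 (0.232). Against the null the change was -1.22 ± 0.29 (SE; limma adjusted p = 0.064), or -1.30 with an adjusted p of 0.024 under the replicate block. In null against control it was -0.40 ± 0.29 (SE; limma adjusted p = 1), with null minus control values of -0.50, -0.34 and -0.38 in the 3 pairs. The genes of most similar pattern were P4ha3 (root mean square difference 0.16), Dach2 (0.18) and Edaradd (0.21).

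Cldn10 and Cldn12 passed the test in none of the 3 comparisons. Cldn10, known for cation and anion pores of kidney tubules, is read by a probe on the plus strand of chromosome 14 at 119273459-119273518 in mm9. It was at -2.17, -3.17 and -3.39 in controls 1, 2 and 3, at -1.40, -2.05 and -2.94 in nulls 1, 2 and 3, and at -2.59 and -2.81 in Tbx18VP16 pools. The groups overlapped, but each null pool stood above its own control, by 0.77, 1.12 and 0.45. The null change was 0.78 ± 0.48 (SE; limma adjusted p = 1, and 0.139 with the replicate block). In Tbx18VP16 it was 0.20 ± 0.50 (SE; limma adjusted p = 0.84) against control and -0.58 ± 0.50 (SE; limma adjusted p = 0.533) against null. Its nearest genes in pattern were Spag11b (0.22), Zfp819 (0.23) and Dio2 (0.23), in root mean square difference.

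Cldn12 lacks the usual motif by which claudins bind scaffold proteins. Its probe is on the minus strand of chromosome 5 at 5505223-5505282 in mm9. The level was 0.83, 0.03 and 0.21 in controls, 0.86, 0.31 and 0.85 in nulls, and 0.78 and 0.92 in Tbx18VP16 pools, in order of replicate. The groups overlapped throughout. Changes were 0.32 ± 0.30 in null against control, 0.49 ± 0.31 in Tbx18VP16 against control and 0.18 ± 0.31 in Tbx18VP16 against null (SE; limma adjusted p = 1, 0.387 and 0.778). Ipo11 (0.07), Bzw1 (0.10) and Sdad1 (0.10) were nearest in pattern by root mean square difference.

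Cldn3, Cldn4, Cldn6, Cldn7 and Cldn8, claudins known from ureteric bud, collecting duct and other epithelia, varied together from pool to pool. Over the 8 arrays the Pearson correlations between them were 0.86 to 0.99, as a description over arrays that share pools and slides. Cldn1 was negatively correlated with each of them, from -0.72 with Cldn7 to -0.35 with Cldn3. In pair 1 all 5 were lower in the null pool than in its control, with a median of -1.07. In pairs 2 and 3 all 5 were higher in the null, with medians of 1.45 and 3.23. The sign of the difference between null and control thus depended on the pair of pools.

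Cldn6, a claudin of embryonic epithelia, was at -4.19, -2.07 and -2.83 in controls 1, 2 and 3. In nulls 1, 2 and 3 it was at -5.36, -0.62 and 0.76, and in the Tbx18VP16 pools at -4.44 and -5.67. Its probe lies on the plus strand of chromosome 17 at 23819027-23819086 in mm9. Tbx18VP16 pool 2 was not well above background. The 3 nulls held both the highest values and 1 of the lowest. The null change was 1.29 ± 1.47 (SE; limma adjusted p = 1) and came to 0.04 without null 3.

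Cldn3, a barrier claudin with a broad epithelial range, was at -5.54, -3.01 and -3.05 in controls, -6.35, -1.61 and 0.18 in nulls, and -4.70 and -5.56 in Tbx18VP16 pools. Its probe is on the plus strand of chromosome 5 at 135463284-135463342. Pool 1 of both control and null and Tbx18VP16 pool 2 were not well above background. The null change was 1.27 ± 1.60 (SE; limma adjusted p = 1), and turned to -0.11 without null 3.

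Cldn4, which is expressed with Cldn3 in many epithelia and lies on the same chromosome, has 2 probes on the minus strand, at 135422135-135422194 and 135421347-135421406. The first read -5.10, -3.99 and -3.79 in controls, -6.16, -2.02 and -0.67 in nulls, and -5.08 and -6.46 in Tbx18VP16 pools. With this probe null 1 and Tbx18VP16 pool 2 were not well above background. The second read -5.72, -4.56 and -4.52 in controls, -7.78, -2.88 and -1.33 in nulls, and -6.77 and -6.75 in Tbx18VP16 pools. Both probes gave the same order of null pools. The null change was 1.34 ± 1.29 (SE) with the first probe and 0.94 ± 1.51 (SE) with the second, each with a limma adjusted p of 1, and 0.20 with the first probe without null 3.

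Cldn8, a claudin of the collecting duct, was at -5.96, -3.89 and -3.92 in controls, -7.57, -2.14 and -0.18 in nulls, and -5.74 and -7.01 in Tbx18VP16 pools. Its probe is on the minus strand of chromosome 16 at 88561135-88561194. Nulls 1 and 3 held its lowest and highest level. The null change was 1.29 ± 1.74 (SE; limma adjusted p = 1) and turned to -0.26 without null 3.

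Cldn7, which in epithelia also lines the lateral membrane and binds Epcam, was at -2.22, -1.92 and -1.94 in controls, -2.51, -0.75 and 0.78 in nulls, and -3.67 and -3.92 in Tbx18VP16 pools. Its probe is on the plus strand of chromosome 11 at 69781255-69781314. Control pools were close together (SD 0.17, n = 3), nulls spread around them, and both Tbx18VP16 pools lay below all others. The null change was 1.20 ± 0.74 (SE; limma adjusted p = 1) and 0.39 without null 3.

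None of these 5 genes passed the null test with the replicate block either, with blocked limma adjusted p values of 0.447 (Cldn7) to 0.661 (Cldn8). Without pair 1 the blocked changes were 1.94 (Cldn7) to 2.75 (Cldn8), with adjusted p values of 0.108 to 0.204. On the first slide alone, which holds pairs 1 and 2, they were 0.07 (Cldn8) to 0.45 (Cldn4).

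Markers of ureteric epithelium mostly stood higher in the null in pairs 2 and 3, where these claudins did too. In pair 1, 18 of the 26 tested were higher in the null and 8 lower. Epcam was at -3.90, -2.41 and -2.37 in controls, -3.71, -0.95 and 0.45 in nulls, and -2.88 and -3.14 in Tbx18VP16 pools. Cdh1, the adhesion protein of epithelia, was at -7.67, -5.27 and -5.21 in controls, -7.84, -3.39 and -2.09 in nulls, and -7.92 and -6.69 in Tbx18VP16 pools. Of 26 ureteric epithelium genes tested, 18, 24 and 25 stood higher in the null of pairs 1, 2 and 3, with medians of 0.24, 1.33 and 2.83. Over all 18417 genes tested, 10099, 9173 and 9214 stood higher in these pairs. The summed level of that list was 3.16 to 3.54 in controls, 4.07 to 4.96 in nulls and 3.46 and 3.65 in Tbx18VP16 pools. The sum is led by its brightest genes and is no measure of epithelial content. Etv5, among the brightest, was at 2.58, 1.32 and 1.28 in controls 1, 2 and 3. In nulls 1, 2 and 3 Etv5 was at 3.18, 2.26 and 2.46. In Tbx18VP16 against control 14 of 28 ureteric epithelium genes were higher and 14 lower. The part of epithelial cells in the sorted pools in these claudin values was not tested.

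**Figure D3:**
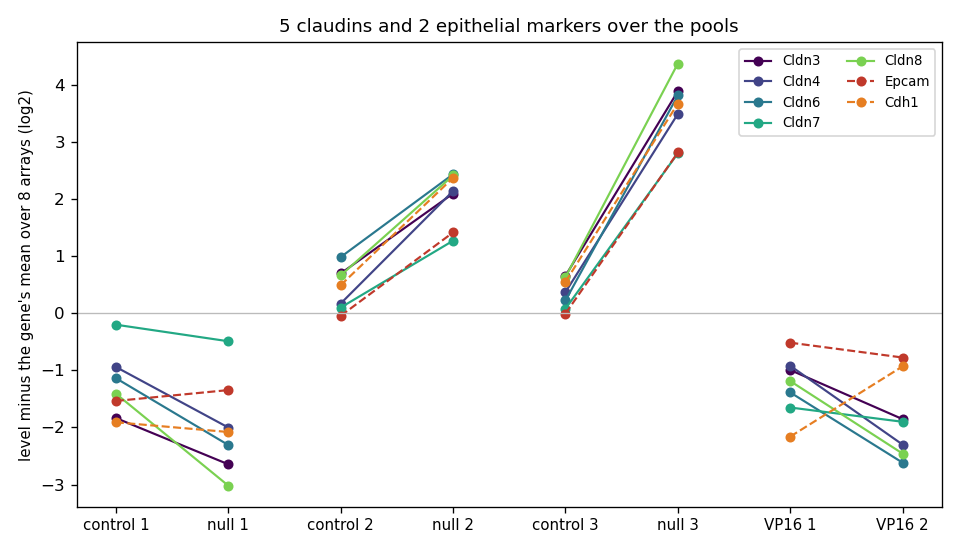
Levels of Cldn3, Cldn4, Cldn6, Cldn7 and Cldn8 (solid) and of the epithelial markers Epcam and Cdh1 (dashed) over the 8 arrays, each minus its own mean in log2. Lines join the control and null pools of a pair and the 2 Tbx18VP16 pools. All 5 claudins are lower in null than in control in pair 1 and higher in pairs 2 and 3, and null 3 is the highest array for every gene shown.

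By the same measure of likeness over 8 arrays, these claudins were close to each other and to a few other genes. Cldn8 was nearest to Cldn3 (root mean square difference 0.36) and Cldn6 (0.39), and Cldn6 to Cldn8 (0.39) and Cldn4 (0.41). Cldn4 was near Spint1 (0.32), an inhibitor of epithelial serine proteases, and Map3k21 (0.37), which was also nearest to Cldn3 (0.32). Ccdc198 was nearest to Cldn4 (0.29). Cldn7 was near Ap3b2 (0.38), Kif12 (0.39) and Cldn9 (0.41).

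In Tbx18VP16 pools the 5 epithelial claudins lay within or below the control range. The changes against control were -1.27 ± 1.69 (Cldn3), -1.48 ± 1.39 (Cldn4), -2.02 ± 1.57 (Cldn6), -1.77 ± 0.78 (Cldn7) and -1.78 ± 1.85 (Cldn8) (SE; limma adjusted p = 0.693, 0.567, 0.486, 0.228 and 0.606). Neither pool reached any control for Cldn6 and Cldn7, while for the other 3 genes 1 pool stood above control 1. Cldn8 and the second probe of Cldn4 were not well above background in either Tbx18VP16 pool, nor in control 1 or null 1. The log2 changes of Cldn8 in Tbx18VP16 therefore rest partly on unmeasured signals and are not to be read as measured folds. For that Cldn4 probe no such change is given. Against the null the changes were -2.54 ± 1.69 (Cldn3), -2.82 ± 1.39 (Cldn4), -3.31 ± 1.57 (Cldn6), -2.97 ± 0.78 (Cldn7) and -3.08 ± 1.85 (Cldn8) (SE; limma adjusted p = 0.412, 0.277, 0.264, 0.079 and 0.368). These sizes depended on which null pool was included. Without null 3, the highest in all 5 genes, they were -1.15 (Cldn3), -1.68 (Cldn4), -2.07 (Cldn6), -2.17 (Cldn7) and -1.52 (Cldn8), with limma adjusted p values of 0.0826 (Cldn7) to 0.668 (Cldn3). Without null 1, the lowest in all 5, Cldn4, Cldn6, Cldn7 and Cldn8 were at -4.43, -5.12, -3.81 and -5.21 (limma adjusted p = 0.0193, 0.0197, 0.0118 and 0.0288). Cldn3 was then at -4.42 and did not pass.

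**Figure D4:**
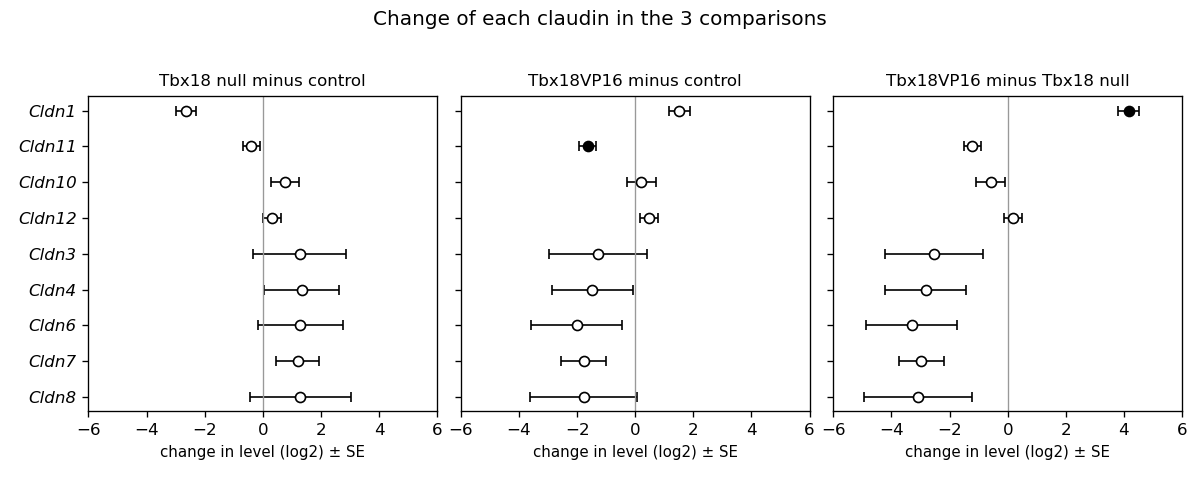
Change of each tested claudin in log2 with its standard error in Tbx18 null minus control (3 and 3 arrays), Tbx18VP16 minus control (2 and 3) and Tbx18VP16 minus Tbx18 null (2 and 3). Filled points passed the limma test at an adjusted p under 0.05 without the replicate block. Cldn1 lies at -2.64, 1.52 and 4.16, and the 5 epithelial claudins lie right of 0 in the null and left of 0 in Tbx18VP16 with wide errors.

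Counted over the list, 7 of the 9 tested claudins were higher and 2 lower in null than in control, with a median change of 1.20 against 0.005 over all genes tested. Without null 3, 5 were higher and 4 lower, with a median of 0.04. Without the replicate block no claudin passed in limma and 0% of 18417 genes did, with 1 claudin and 930 genes (5.05%) at an unadjusted p under 0.05. With it 1 claudin passed, Cldn1, against 1.08% of genes. Only Cldn1 had groups that did not overlap, on the lower side, where 3.71% of all genes stood, and no claudin on the higher side, where 4.33% did.

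In Tbx18VP16 against control 3 claudins were higher and 6 lower, with a median of -1.48 against -0.129 over all genes. Cldn11 passed on the lower side, where 3.19% of 19211 genes did, and none on the higher side, where 2.12% did. Groups did not overlap for 3 claudins on the lower side (29.4% of all genes) and for 1 on the higher side (18% of all genes); with such shares the counts are not a result about the claudins. Against the null, Cldn1 passed on the higher side (1.21% of genes) and none on the lower side (2.31%). There the groups did not overlap for Cldn1 on the higher side (16.7% of genes) and for 2 claudins on the lower side (30.9%). The Tbx18VP16 comparisons share arrays with each other and with the null comparison and are not independent of it.

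Of the other claudin family genes, 10 were tested. In the null 7 were higher and 3 lower, with a median of 0.09. None passed the limma test, with 2 at an unadjusted p under 0.05. Cldn9 and Cldn5 had the smallest p values. Cldn9 was at -3.49, -3.14 and -3.43 in controls, -3.35, -1.21 and -0.40 in nulls, and -4.03 and -4.41 in Tbx18VP16 pools. It was near its control in null 1 and highest in nulls 2 and 3. Cldn5, the tight junction claudin of endothelium, was at -3.51, -1.72 and -2.14 in controls, -1.80, -0.62 and 2.36 in nulls, and -3.21 and -2.63 in Tbx18VP16 pools. It was highest in null 3, the pool with the highest summed level of 12 endothelial genes. Cldn5 is itself among those genes, so the 2 are not independent. The part of endothelial cells in the Cldn5 values was not tested. In Tbx18VP16 against control 2 were higher and 8 lower, with a median of -0.67. Only Cldn23 passed (limma adjusted p = 0.0451), on the lower side, where 3.19% of all genes did. Cldn23 was well above background in every control but in neither Tbx18VP16 pool, so no size of change is given.

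No partner of claudins at the junction passed the limma test in these 2 comparisons. Among membrane proteins 3 in the null and 4 in Tbx18VP16, and among scaffold proteins 2 and 0, had an unadjusted p under 0.05, against 5.05% of all genes in the null and 22.4% in Tbx18VP16. Of 12 other membrane proteins of tight junctions, such as Ocln and the Jam family, 9 were higher and 3 lower in the null, with a median of 0.66, and 4 were higher and 8 lower in Tbx18VP16, with a median of -0.20. Jam2 had the smallest p in both, with changes of -1.23 ± 0.33 (SE; limma adjusted p = 0.434) and -1.34 ± 0.35 (SE; limma adjusted p = 0.0707). Of 20 scaffold and polarity proteins, 10 were higher and 10 lower in the null, with a median of -0.03. In Tbx18VP16 8 were higher and 12 lower, with a median of -0.16. Tjp3 led in the null, at 1.38 ± 0.45 (SE; limma adjusted p = 0.638).

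Regulators of transcription and splicing in epithelia, and mesenchymal repressors of epithelial genes, were read as 2 lists. Of 13 tested regulators of the epithelial state, 10 were higher and 3 lower in the null, with a median of 0.83. In Tbx18VP16 against control 4 of 14 tested were higher, Grhl1 among them, and 10 lower, with a median of -0.25. Grhl1, a grainyhead factor, was at -7.57, -6.86 and -6.29 in controls 1, 2 and 3, -3.89, -4.16 and -3.16 in nulls 1, 2 and 3, and -3.19 and -3.05 in Tbx18VP16 pools. It was well above background in 1 control and in every null and Tbx18VP16 pool. It entered the fits through the null and Tbx18VP16 pools, where it was high, and with 2 of 3 controls unmeasured no size of change is given. The part of these regulators in the claudin values was not tested.

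Of 7 mesenchymal repressors of epithelial genes, 1 was higher and 6 lower in the null, with a median of -0.99. Of these, 3 passed with the replicate block, against 1.08% of all genes. Twist2 changed by -1.01 ± 0.22 (SE; limma adjusted p = 0.276 without and 0.0455 with the block) and Zeb2 by -1.63 ± 0.37 (SE; 0.302 and 0.0306). Twist1, named after its values were seen, changed by -2.01 ± 0.89 (SE; limma adjusted p = 1 without and 0.0194 with the block). Zeb2 was at 1.81, 2.56 and 2.39 in controls, -0.05, 1.09 and 0.83 in nulls, and 1.04 and 0.92 in Tbx18VP16 pools. Zeb2 was lower in the null than in its control in every pair. The part of these repressors in the claudin values was not tested. In Tbx18VP16 against control 1 of the 7 was higher and 6 lower, with a median of -0.59. None passed the limma test, with 3 at an unadjusted p under 0.05.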

How the data were processed

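RNA of 8 sorted cell pools was measured on 1-colour Agilent arrays with probes of 60 bases. Each deposited scanner file gives the intensity of every spot, background-corrected by Agilent Feature Extraction 10.7.3.1 per the file headers and the submitters' processing notes. It also flags outlier, saturated and well above background spots. A value table deposited by the authors, linear intensity with identical sorted values in all 8 columns and a lowest value of 10, served as an alternative; the software behind it is not given in the sources.

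From these files, spots of a probe (4 per array, outliers left out) were averaged, converted to log2 and set relative to the array's 75th percentile over the 39429 probes on both designs. A probe counted as well above background where at least a share of 0.5 of its spots did. Probes were named through RefSeq tables of GRCm38.p6 (28331 by accession, 3743 by symbol, 283 by synonym, 4687 by the name in the files, 2385 unnamed and not tested). Probe positions are in mm9, as the files give them. Genes entered the null fit if well above background on 3 or more of its 6 arrays, and the fit of all arrays if so on 2 or more of 8. The probe with the highest mean level stood for a gene. The null fit used lmFit and eBayes of limma 3.58.1 under R 4.3.3. Tbx18VP16 was compared in a fit of 3 group means on all 8 arrays, taken as independent. Tests are two-sided, with Benjamini-Hochberg adjustment over all genes tested and a threshold of 0.05. The fits were tested on simulated data.

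Replicates are separate pools, so p-values measure the spread between pools, which may be partly technical, and the number of arrays limits the precision. Deviations from the group means correlated at 0.824, 0.711 and 0.431 for control and null of the same number, and at -0.751 to 0.317 for different numbers. The numbers were therefore taken as pairs, and the replicate block leaves 2 residual degrees of freedom. Every claudin of the list and every probe is reported. Of other gene lists, up to 4 members of smallest p are named, and for claudins well above background on at least 4 arrays the 3 most similar genes, passing over clone-like names. Other members are named where they describe a level or a sum. The claudins and the lists were chosen with earlier results of these data known. Alternatives of scaling, values, background, filter, probe, samples and block were listed with the design. The replicate block without each pair and within the first slide was added after seeing the data.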

Additional observations from a re-analysis of the deposited data

How the results depend on the processing

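The change of each of the 9 tested claudins in 3 comparisons was recomputed under alternatives, giving 535 values for 27 changes, of which 5 turned sign. These were, in null against control, Cldn3 without null 3 (range -0.11 to 3.16 without an array) and Cldn8 without null 3 (-0.26 to 3.43). In Tbx18VP16 against control Cldn10 turned without control 3 (-0.04 to 0.57 without an array) and with the replicate block (-0.12), and in Tbx18VP16 against null Cldn12 without null 2 (-0.01 to 0.27). None of them had passed the test. The cause was not tested.

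Counts of calls depended more on the processing. In null against control, called genes went from 0 to 4 with normexp, 1 without a filter, 4 with the mean of a gene's probes, 6 with the slide as a block, 73 in the fit of all 8 arrays, 198 with the replicate block and 746 with the replicate block within the first slide. Leaving out each array gave 0 to 20 genes, and the replicate block without pair 1, 2 or 3 gave 16, 0 and 746. Called claudins went from 0 to 1 with the replicate block and in the fit of 8 arrays (Cldn1 in both), and to 2 within the first slide with the block (Cldn1 and Cldn10, adjusted p = 0.00187 and 0.0295). Leaving out each array gave 0 called claudins. On the first slide without the block no claudin passed.

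In Tbx18VP16 against control, called genes went from 1019 to 624 with normexp, 620 with the filter on every array and 3222 with the replicate block, and ranged from 56 to 1739 without an array. Called claudins went from 1 to 2 with the array median, normexp, the authors' table or the replicate block, to 3 with only the arrays of both groups, and ranged from 0 to 3 without an array. Against null, called genes went from 675 to 374 with normexp, 379 with the filter on every array, 368 with only the arrays of both groups and 2876 with the replicate block, and ranged from 10 to 674 without an array. Called claudins went from 1 to 0 with the filter on every array, under which Cldn1 was not tested, and to 3 with the replicate block, and ranged from 0 to 5 without an array. The block changed no claudin call other than those of Cldn1, Cldn7 and Cldn11 named here or in the report (Cldn7 against null, -2.55, adjusted p = 0.0484).

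The array median moved the median change of all genes from -0.129 to 0.075 in Tbx18VP16 against control and from -0.138 to 0.134 against null. Higher and lower calls were then 543 and 366 (407 and 612 as reported) and 316 and 206 (232 and 443). With the authors' table they were 537 and 504, and 353 and 331. With quantile normalisation they were 525 and 552, and 322 and 360, and without a filter 458 and 494 against control. Cldn1 and Cldn11 kept their direction under each of these scalings. Few arrays per group, and signals near background in Cldn3, Cldn4 and Cldn8, limit what can be detected.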
